A study of Mus musculus with 9 samples.

Results

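The mitochondrial respiratory chain was followed through 94 genes in mouse C1498 leukaemia cells carrying a control construct or 1 of 2 hairpins against Zeb1. Members were chosen by symbol alone: genes whose symbol starts with Nduf, Uqcr or Atp5, or with Cox followed by a digit from 4 to 8 and a letter, together with Cyc1, Sdha, Sdhb, Sdhc and Sdhd. The rule found 94 of the 19505 genes named on the array, which 19572 probe sets represent, and each member had 1 probe set. By role they comprised 36 subunits of complex I, 8 complex I assembly factors, 4 subunits of complex II, 9 of complex III, 19 of complex IV, 17 of complex V, and the supercomplex factor Cox7a2l. Of 13 subunits encoded by mitochondrial DNA that were sought by symbol, 0 matched a named probe set, so they were not analysed here.

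The labels name the cells C1498, an established mouse line of acute myeloid leukaemia. Their identity was not tested here, and levels of cell type markers are given below. Cells were exposed overnight to lentivirus that encodes GFP and either the negative control construct (Scr), hairpin sequence C against Zeb1 (shZeb1_C) or hairpin sequence D against Zeb1 (shZeb1_D), so every group carried a lentiviral construct and GFP. Sorting for GFP followed after 2 weeks, and total RNA of the sorted cells went onto 9 single-colour arrays, 3 in each of 3 groups. The arrays keep the numbers of their labels, 7 to 9 for Scr, 10 to 12 for shZeb1_C and 13 to 15 for shZeb1_D. Whether a group's arrays stem from separate infections, or its cells from 1 clone, is not stated in the labels, so p-values measure only the spread between these samples, and that spread may be technical.

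The respiratory chain sits in the inner mitochondrial membrane. Complexes I and II pass electrons from NADH and succinate to coenzyme Q, complex III passes them on to cytochrome c and complex IV to oxygen. Complexes I, III and IV pump protons, and complex V, the ATP synthase, lets the protons return and makes ATP. Most subunits are encoded in the nucleus, and the transcription factors NRF1 and GABP are known to bind many of their promoters. Zeb1 is a zinc-finger repressor that binds E-box sequences.

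Promoter windows of 300 bases, from 250 before to 50 after the annotated start, were available from RefSeq (GRCm38.p6) for 77 of the 94 members, in 82 windows. The NRF1 motif, which reads GCGCA, then any base, then GCGC, and was sought on both strands, lay in 20 of the 82 windows (24.4%), against 4.6% of the 32851 windows of all genes. The ETS motif bound by GABP, CCGGAAG, lay in 19 windows (23.2%), against 8.86% of all windows. Either motif was found for 34 genes and both for 4, with 0 overlapping matches between the motifs.

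The E-box of Zeb1, CACCTG, lay in 19.5% of the members' windows and 20.2% of all windows. The YY1 motif was found in 5 of the members' 82 windows (6.1%) and in 0.986% of all windows. For the motif of ESRRA, TCAAGGTCA, it was only 2 windows (2.44%) and 0.423%. TATAAA was found in 11% and 13.6%. The members' windows had a median GC content of 58.0%, against 52.7% for all windows, and a match is a description of the letters rather than evidence of binding.

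Stretches of 6 promoters are shown because they carry the NRF1 motif in front of genes whose values are described below, or carry it several times. NRF1 matches are in capitals, and each stretch is written from 5′ to 3′ along the gene, whose strand is minus in all 6 cases. The Sdha stretch is chr13:74350241-74350350 and holds 3 matches, which begin 98, 55 and 10 bases before the start. The Ndufb4 stretch is chr16:37654369-37654568 and also holds 3, whereas that of Cox6a1, chr5:115349019-115349128, holds 2. The stretches of Sdhd (chr9:50603850-50603959), Ndufa5 (chr6:24527691-24527800) and Atp5c1 (chr2:10080433-10080542) hold 1 match each.
Sdha: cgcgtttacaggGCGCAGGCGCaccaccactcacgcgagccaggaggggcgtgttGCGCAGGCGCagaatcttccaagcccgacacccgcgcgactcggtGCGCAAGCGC
Ndufb4: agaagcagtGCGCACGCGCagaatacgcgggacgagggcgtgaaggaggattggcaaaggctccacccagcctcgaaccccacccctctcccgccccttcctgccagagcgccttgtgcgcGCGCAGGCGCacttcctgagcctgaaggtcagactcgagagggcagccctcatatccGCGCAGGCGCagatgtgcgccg
Cox6a1: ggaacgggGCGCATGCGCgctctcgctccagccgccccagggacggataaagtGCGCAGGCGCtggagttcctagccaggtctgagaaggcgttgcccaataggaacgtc
Sdhd: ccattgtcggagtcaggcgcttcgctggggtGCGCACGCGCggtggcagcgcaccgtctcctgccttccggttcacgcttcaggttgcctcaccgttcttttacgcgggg
Ndufa5: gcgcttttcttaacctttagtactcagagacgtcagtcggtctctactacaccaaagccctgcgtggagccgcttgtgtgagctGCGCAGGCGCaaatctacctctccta
Atp5c1: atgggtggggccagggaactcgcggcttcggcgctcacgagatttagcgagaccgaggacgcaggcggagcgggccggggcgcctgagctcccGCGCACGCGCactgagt

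The deposited values are RMA signals, used here as log2, and medians of single arrays lay between 7.02 and 7.17. Pairs of arrays correlated across probe sets with Pearson's r of 0.9773 to 0.9950 within a group and 0.9679 to 0.9892 across groups. Zeb1 itself averaged 10.46 ± 0.15 (SD) on the 3 Scr arrays, 10.25 ± 0.21 with shZeb1_C and 9.41 ± 0.15 with shZeb1_D. Against Scr it fell by 1.05 with shZeb1_D (limma adjusted p = 0.0263), while with shZeb1_C the difference was -0.20 and missed the threshold (limma adjusted p = 0.895). Of 9 genes listed for myeloid leukaemia cells, not all particular to them, only Ptprc and Mpo lay above the median level of 7.10. Spi1, Cebpa, Itgam, Elane, Csf1r, Cd33 and Kit did not. Of 11 T and NK cell markers, 6 lay above it (Cd3d, Cd3e, Cd3g, Cd4, Klrd1 and Gzmb). The mean level of those 11 markers was 8.34 to 8.83 in Scr, 9.44 to 10.10 in shZeb1_C and 8.57 to 8.85 in shZeb1_D. In limma, 2 of the 11 were called between shZeb1_C and Scr, 0 between shZeb1_D and Scr and 2 between the hairpins. None of the B cell markers (3 of 4 measured) or erythroid markers (1 of 4 measured) lay above the median level. Of 5 genes listed for stromal cells, 2 did (Col1a1 and Pecam1). The part of these markers in the members' values was not tested, and in bulk RNA fewer cells of a type and less RNA per cell cannot be told apart.

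No respiratory chain gene differed between the groups in limma at an adjusted p under 0.05. The counts were 0 of 94 for shZeb1_C against Scr, where 0.945% of all probe sets were called, 0 of 94 for shZeb1_D against Scr (0.843% of all) and 0 of 94 for shZeb1_D against shZeb1_C (0.848% of all). The lowest limma adjusted p among the members was 0.434, 0.288 and 0.276 in those comparisons. At an unadjusted p under 0.05, limma gave 3 members (8.77% of all probe sets), 4 members (13.6%) and 3 members (11.7%), which are 3.19%, 4.26% and 3.19% of the 94. A linear model without moderation of the variance also called 0 members in each comparison, but only 23, 0 and 11 of all 19572 probe sets. With so few calls, that count of 0 says little about the members. Both hairpin comparisons use the same Scr arrays.

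The typical member lay close to its control level. With shZeb1_C the members' median log2 difference from Scr was -0.08, against 0.00 for all probe sets, and 69 of 94 were lower (49.5% of all probe sets). With shZeb1_D it was 0.05, against 0.04 for all probe sets, and 39 of 94 were lower (43.9% of all). Between shZeb1_D and shZeb1_C the median was 0.14, against 0.04, and 25 of 94 were lower (44.3% of all). As shares of the members these counts are 73.4%, 41.5% and 26.6%. The 89 members above the median level had medians of -0.09, 0.04 and 0.14, with 75.3%, 43.8% and 27% lower. Among all probe sets above that level the medians were -0.03, -0.05 and -0.02, with 54.2%, 54.8% and 52.2% lower. The first median became 0.03 without Scr replicate 8 and -0.15 with array medians subtracted, and the second became -0.03 with array medians subtracted and 0.18 without shZeb1_D replicate 13. With shZeb1_C, 40 of 94 members were lower without Scr replicate 8, 48 without shZeb1_C replicate 11 and 76 without shZeb1_C replicate 12. With shZeb1_D, 58 were lower without shZeb1_D replicate 14 and 22 without shZeb1_D replicate 13. Between the hairpins, the median was 0.03 with 40 members lower without shZeb1_D replicate 14, and 0.26 with 12 lower without shZeb1_D replicate 13.

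The intervals show what size of change these arrays could leave unseen. The 95% limma interval lay wholly within a 2-fold change either way for 73 of 94 members with shZeb1_C, 72 with shZeb1_D and 69 between the hairpins. Among all probe sets the shares were 77.8%, 74.1% and 75.8%, and among those above the median level, where 89 of the 94 members lie, 62.8%, 58% and 59.8%. Within a 1.5-fold change the counts of members were 43, 41 and 43. The differences ranged from -0.98 to 0.55 with shZeb1_C, from -1.35 to 0.65 with shZeb1_D and from -1.04 to 0.94 between the hairpins.

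**Figure D1:**
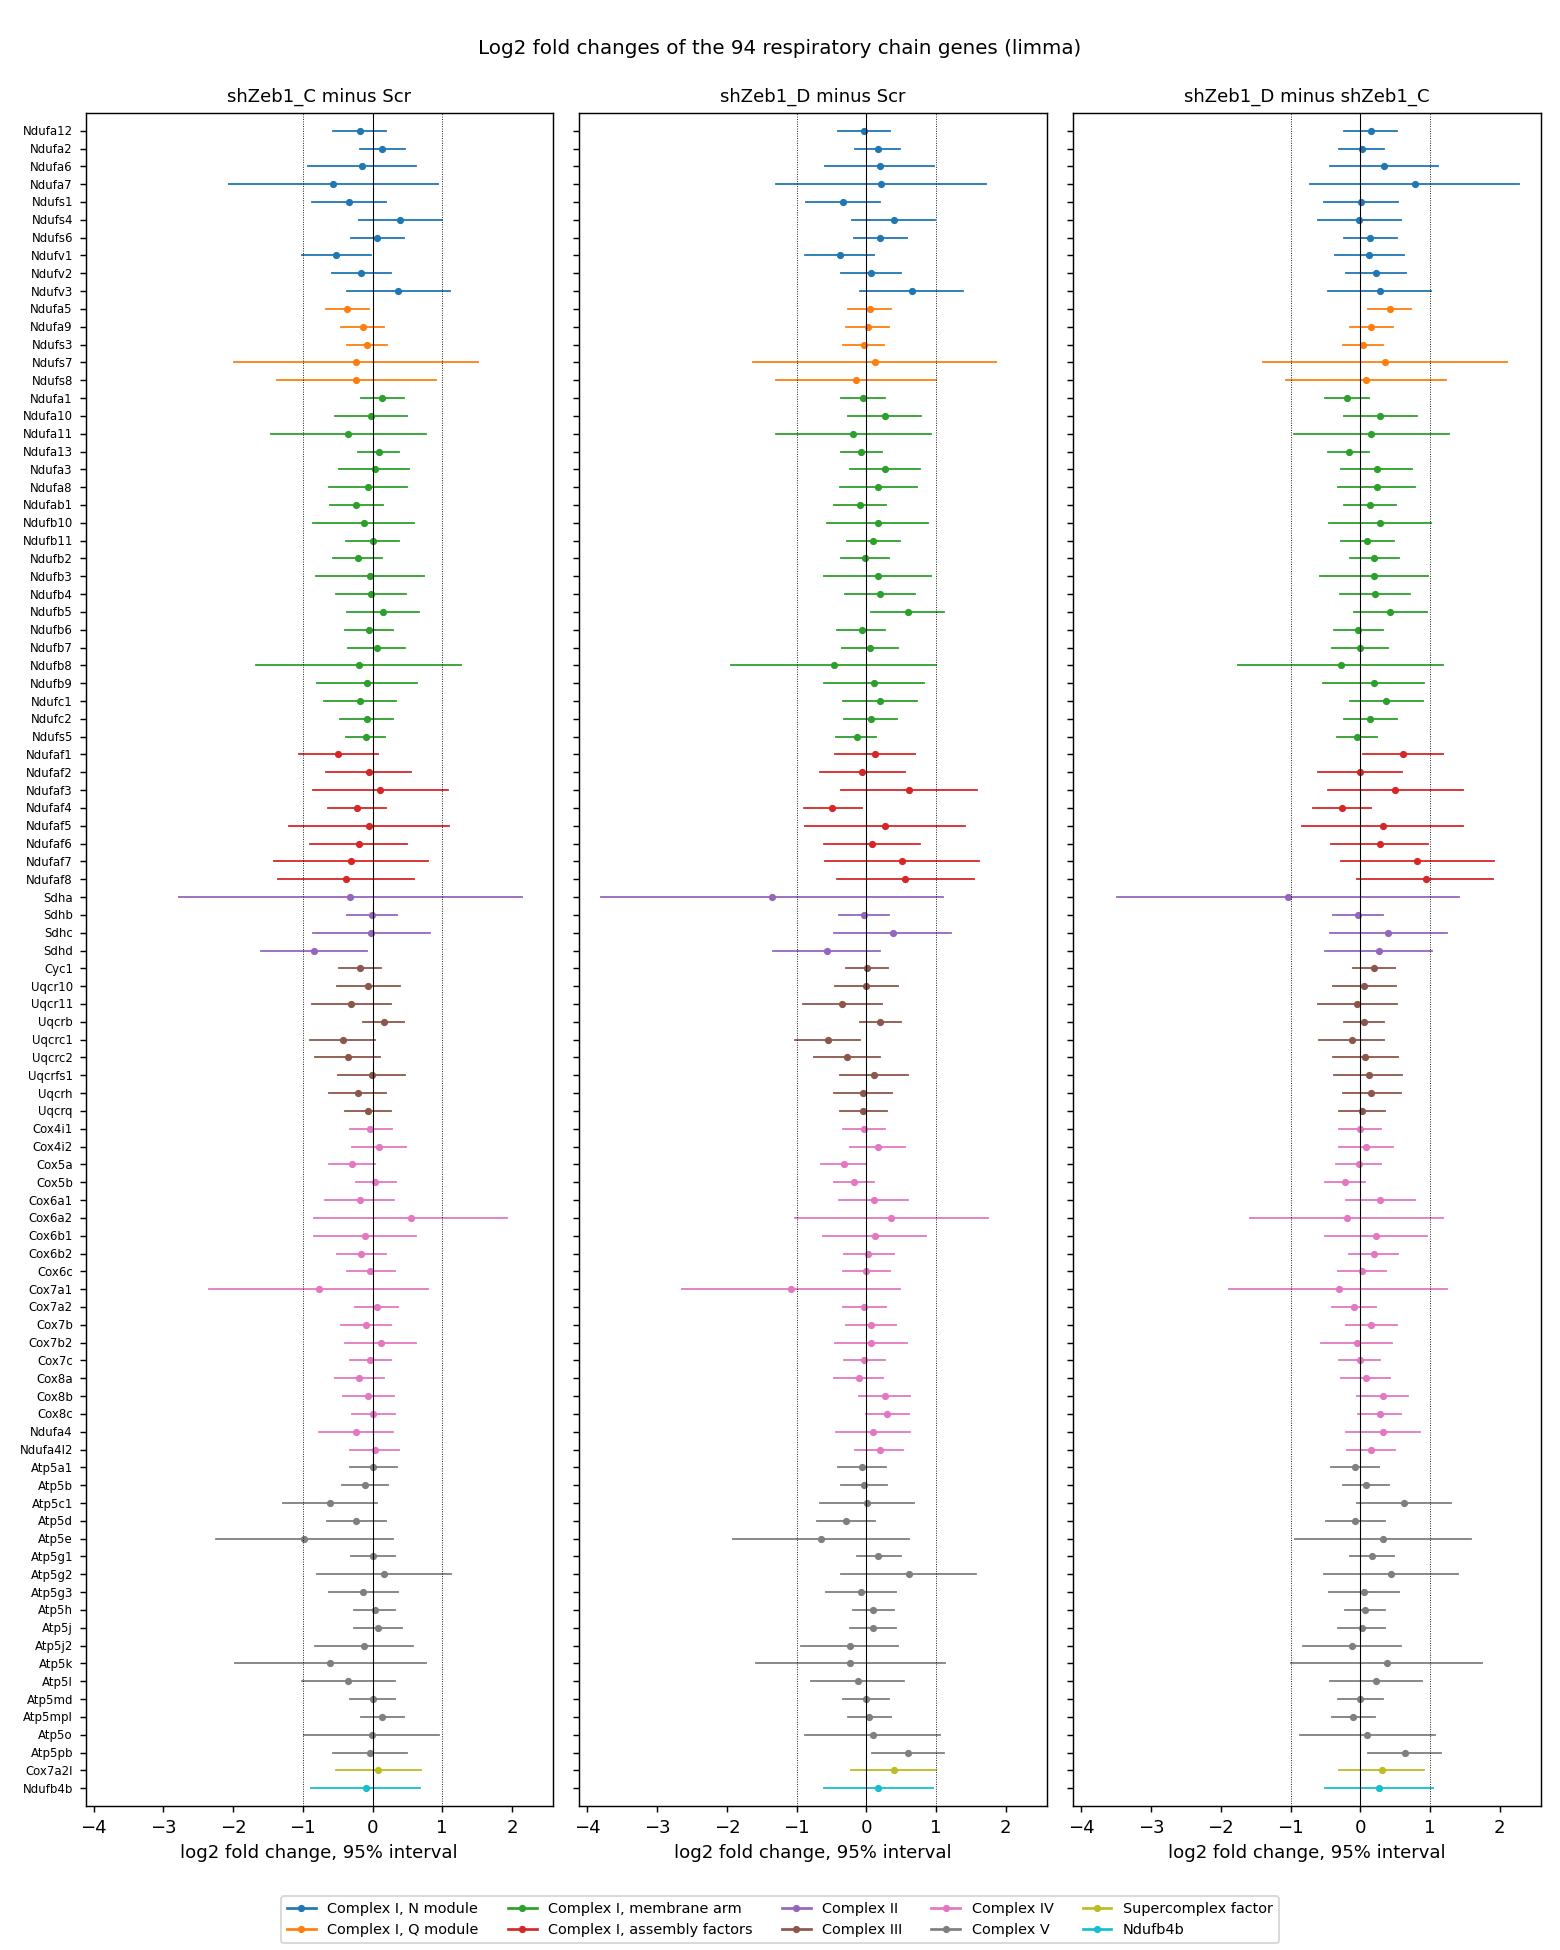
Log2 fold change of each of the 94 members (points) with its 95% limma interval (lines) for the 3 comparisons, coloured by role; dotted lines mark a 2-fold change. Sdha has the widest interval in each panel, and most intervals lie inside the dotted lines.

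The spread between arrays of a group depended on the level of the gene. The 25 members with a mean above 16 had a median within-group SD of 0.12, and the 33 members between 14 and 16 had 0.30. It was 0.48 for the 17 members between 12 and 14 and 0.63 for the 14 members between 7.10 and 12. The 5 members at or below 7.10 had 0.17.

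Within groups, the members moved together from array to array. Scr replicate 8 was the highest Scr array for 74 members (78.7%), against 35.6% of all probe sets. Replicate 12 was the highest shZeb1_C array for 69 members (73.4% against 43.5%), and replicate 13 was the lowest shZeb1_D array for 80 members (85.1% against 43.4%). The members' median difference from the Scr mean was -0.11, 0.22 and -0.09 on the Scr arrays, -0.20, -0.16 and 0.12 on the shZeb1_C arrays, and -0.24, 0.23 and 0.12 on the shZeb1_D arrays. Each group thus spanned values from below to above the Scr mean, and the groups overlapped.

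The same arrays were high and low in the median of each role group, except that replicate 15 was the lowest shZeb1_D array for complex II. The range was widest in the assembly factors. Their median difference from the Scr mean ran from -0.33 to 0.56 within Scr and from -0.52 to 0.71 within shZeb1_D. Complex IV covered less, from -0.08 to 0.08 within Scr and from -0.16 to 0.14 within shZeb1_D. The first principal component of the within-group residuals over all probe sets held 57.9% of that variance. Its scores were -0.35, 0.75 and -0.39 on the Scr arrays, -0.48, -0.52 and 1.00 on the shZeb1_C arrays, and -0.95, 0.59 and 0.36 on the shZeb1_D arrays, with the same arrays high and low as for the members. What sets these arrays apart was not tested.

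**Figure D2:**
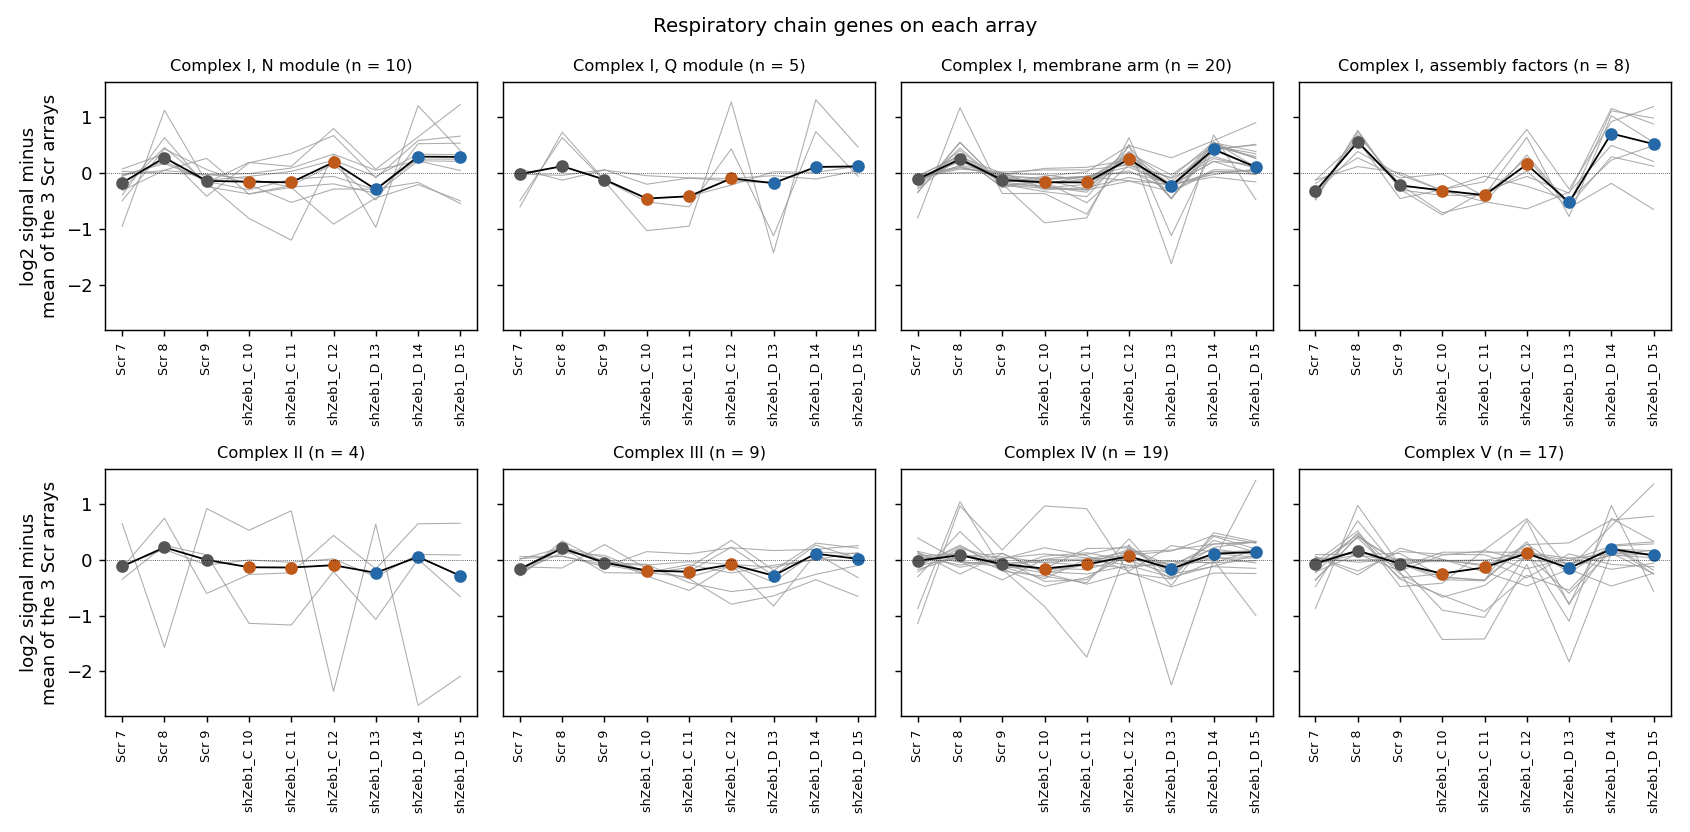
Log2 signal minus the mean of the 3 Scr arrays (vertical axis) on each of the 9 arrays (horizontal axis) for 8 role groups; grey lines are genes and coloured points are the group median. Scr 8, shZeb1_C 12 and shZeb1_D 14 and 15 are high within their groups in most panels, and shZeb1_D 13 is low.

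Over the 9 arrays, 84 members correlated positively with the mean of the 94 and 10 negatively, with a median Pearson's r of 0.80, where each member is also part of that mean. The median over other probe sets above the median level was -0.02. Sdha had the lowest r, -0.89, followed by Atp5a1 (-0.84), Atp5b (-0.60) and Atp5d (-0.58). These values describe genes measured on the same arrays and normalized together, and carry no test. Of 9697 other probe sets above the median level, the profiles most like the members' mean were those of Lysmd2 (r = 0.9909 over 9 arrays), Pex3 (0.9906), Gtf2a2 (0.9896), Ccnq (0.9866) and Ran (0.9859).

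With the component added to the limma fit as a covariate, the fold changes stayed the same and their errors shrank. The fit then called 2 members with shZeb1_C (2.13%, against 4.6% of all probe sets), Atp5e and Sdhd, both lower. With shZeb1_D it called 6 members (6.38% against 9.26%), Atp5pb, Ndufb5 and Ndufaf3 as higher and Atp5e, Cox7a1 and Sdha as lower. Between the hairpins it called 5 members (5.32% against 7.04%), Atp5c1, Atp5pb, Ndufaf7 and Ndufaf8 as higher in shZeb1_D and Sdha as lower. Array weights in the fit, a different change of setting, called Sdhd with shZeb1_C (2.92% of all probe sets called), Atp5pb and Ndufb5 with shZeb1_D (5.5%) and Atp5pb between the hairpins (4.26%). The component was taken from the same values, so the calls made with it are not independent of them.

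In the N module of complex I, which oxidises NADH, the median difference of the 10 subunits was -0.15 with shZeb1_C and 0.18 with shZeb1_D. Ndufv1, the subunit that carries FMN, read 13.16, 13.53 and 13.74 on the Scr arrays, 13.10, 13.22 and 12.56 on the shZeb1_C arrays, and 13.03, 13.27 and 12.98 on the shZeb1_D arrays. The hairpin arrays were mostly below the Scr arrays, with overlap. Its differences were -0.52 ± 0.22 (SE) with shZeb1_C (limma adjusted p = 0.533) and -0.38 ± 0.22 with shZeb1_D (limma adjusted p = 0.484). The iron-sulfur subunit Ndufs1 differed by -0.34 ± 0.24 and -0.33 ± 0.24, and Ndufv2 by -0.16 ± 0.19 and 0.07 ± 0.19.

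The accessory subunits Ndufv3 and Ndufs4 of the same module had positive differences with both hairpins. Ndufv3 read 13.59, 14.34 and 13.71 in Scr, 14.07, 14.00 and 14.68 in shZeb1_C, and 13.95, 14.53 and 15.11 in shZeb1_D, a difference of 0.37 ± 0.33 and 0.65 ± 0.33. Ndufs4, needed for a stable N module, differed by 0.40 ± 0.26 and 0.39 ± 0.26. Neither passed the limma test (adjusted p for Ndufv3 with shZeb1_D 0.428). Ndufa7 was the most scattered member of the module, from 11.05 on shZeb1_C replicate 11 to 13.46 on shZeb1_D replicate 14, and its difference between the hairpins, 0.78 ± 0.67, was close to its error.

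In the Q module, where electrons reach coenzyme Q, all 5 subunits had a negative difference with shZeb1_C (median -0.23), and 3 of 5 a positive one with shZeb1_D (median 0.02). Ndufa5, an accessory subunit of this module, read 16.59, 16.72 and 16.48 in Scr, 16.14, 16.18 and 16.38 in shZeb1_C, and 16.62, 16.61 and 16.72 in shZeb1_D. The shZeb1_C arrays lay below all arrays of both other groups. The difference was -0.36 ± 0.14 between shZeb1_C and Scr (limma adjusted p = 0.434) and 0.42 ± 0.14 between shZeb1_D and shZeb1_C (limma adjusted p = 0.276), while shZeb1_D differed from Scr by 0.05 ± 0.14. The core subunit Ndufs3 had a narrow interval, with -0.08 ± 0.13 and -0.04 ± 0.13 for the hairpins against Scr. Ndufs7 and Ndufs8, which carry iron-sulfur clusters, were scattered, with standard errors of 0.77 and 0.51.

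The 20 subunits of the membrane arm, which pumps protons, had a median difference of -0.06 with shZeb1_C and 0.08 with shZeb1_D. Ndufb5 read 14.45, 14.94 and 14.43 in Scr, 14.55, 14.63 and 15.10 in shZeb1_C, and 14.88, 15.19 and 15.51 in shZeb1_D. Only shZeb1_D replicate 13 overlapped the Scr arrays, and the difference of shZeb1_D from Scr was 0.59 ± 0.23 (limma adjusted p = 0.316). Ndufb8 spread from 10.77 to 13.57 over the 9 arrays and differed by -0.20 ± 0.65 and -0.47 ± 0.65. The other members of the arm had differences between -0.35 and 0.14 with shZeb1_C and between -0.19 and 0.27 with shZeb1_D. Ndufb4b, a gene closely related to Ndufb4 whose reading may include its relative, differed by -0.10 ± 0.35 and 0.17 ± 0.35.

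The 8 assembly factors, which build complex I without staying in it, had median differences of -0.21 with shZeb1_C, 0.19 with shZeb1_D and 0.41 between the hairpins. Ndufaf8 read 11.17, 12.36 and 11.33 in Scr, 10.87, 11.30 and 11.56 in shZeb1_C, and 11.26, 12.78 and 12.50 in shZeb1_D. The shZeb1_D arrays reached higher than the shZeb1_C arrays but overlapped them, with a difference of 0.94 ± 0.43 (limma adjusted p = 0.453). Ndufaf7 differed by 0.82 ± 0.49 between the hairpins, and Ndufaf1, which helps to assemble the membrane arm, by 0.61 ± 0.25 (limma adjusted p = 0.394). Ndufaf3 differed from Scr by 0.61 ± 0.43 with shZeb1_D. Ndufaf4, its assembly partner, lay on the other side: it read 13.31, 13.55 and 13.44 in Scr and 12.81, 13.25 and 12.78 in shZeb1_D, which do not overlap, a difference of -0.49 ± 0.18 (limma adjusted p = 0.296).

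Complex II, which also works in the citric acid cycle, held the most variable member. Sdha, its flavoprotein, read 10.67, 8.45 and 10.94 in Scr, 10.55, 10.90 and 7.66 in shZeb1_C, and 10.66, 7.41 and 7.93 in shZeb1_D. Readings were 10.55 to 10.94 on 5 arrays and 7.41 to 8.45 on 4 arrays, and each group had both kinds. The low readings came on Scr 8, shZeb1_C 12 and shZeb1_D 14 and 15, the arrays on which most other members were high. Its differences were -0.32 ± 1.09 and -1.35 ± 1.09 against Scr, and neither is distinguishable from the spread (limma adjusted p = 0.998 and 0.619).

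The iron-sulfur subunit of complex II, Sdhb, hardly varied and differed by -0.01 ± 0.16 and -0.04 ± 0.16. Sdhc and Sdhd anchor the complex in the membrane. Sdhd read 13.77, 14.38 and 14.21 in Scr, 12.98, 12.95 and 13.91 in shZeb1_C, and 13.05, 14.13 and 13.46 in shZeb1_D. It was lower on average with both hairpins, with overlap through replicates 12 and 14, by -0.84 ± 0.34 (limma adjusted p = 0.488) and -0.57 ± 0.34 (limma adjusted p = 0.496). Sdhc differed by -0.02 ± 0.37 and 0.38 ± 0.37.

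Complex III had a median difference of -0.18 with shZeb1_C and -0.05 with shZeb1_D. Uqcrc1, a core protein of the complex, read 13.70, 13.68 and 14.10 in Scr, 13.67, 13.49 and 13.03 in shZeb1_C, and 13.18, 13.47 and 13.17 in shZeb1_D. All 6 hairpin arrays lay below all 3 Scr arrays, by a margin of 0.01 at the closest. The differences were -0.43 ± 0.21 (limma adjusted p = 0.628) and -0.55 ± 0.21 (limma adjusted p = 0.288). The other core protein, Uqcrc2, differed by -0.35 ± 0.21 and -0.28 ± 0.21, with overlap.

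Uqcrb, a small subunit of complex III, was higher on every hairpin array, with 16.39, 16.40 and 16.21 in Scr, 16.48, 16.44 and 16.55 in shZeb1_C, and 16.50, 16.52 and 16.59 in shZeb1_D. The differences were small, 0.16 ± 0.13 and 0.20 ± 0.13, and did not pass limma (adjusted p = 0.898 and 0.52). The Rieske iron-sulfur protein Uqcrfs1 differed by -0.01 ± 0.21 and 0.11 ± 0.21, and the haem-carrying Cyc1 by -0.18 ± 0.13 and 0.01 ± 0.13.

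In complex IV, the median difference of the 19 members was -0.03 with shZeb1_C and 0.07 with shZeb1_D. Cox5a read 15.88, 16.02 and 15.79 in Scr, 15.66, 15.46 and 15.67 in shZeb1_C, and 15.41, 15.66 and 15.65 in shZeb1_D. All 6 hairpin arrays lay below the 3 Scr arrays, with differences of -0.30 ± 0.14 (limma adjusted p = 0.638) and -0.32 ± 0.14 (limma adjusted p = 0.371). Cox5b, the zinc-binding subunit, was below both other groups in shZeb1_D alone, at 16.48, 16.61 and 16.58 against 16.80, 16.64 and 16.76 in Scr, a difference of -0.18 ± 0.13. Cox4i1 differed by -0.03 ± 0.13 from Scr with either hairpin.

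Several complex IV subunits exist as isoforms with a tissue preference. The isoforms Cox4i2, Cox6b2, Cox7b2, Cox8b and Ndufa4l2 read at or below the median level of all probe sets, whereas Cox4i1, Cox6b1, Cox7b, Cox8a and Ndufa4 read well above it. Each probe set has its own response, so these readings do not rank the isoforms by amount. Cox8c, known from testis, read 7.74, 7.59 and 7.57 in Scr, 7.59, 7.63 and 7.72 in shZeb1_C, and 7.79, 8.07 and 7.93 in shZeb1_D, above both other groups by a difference of 0.30 ± 0.14 from Scr (limma adjusted p = 0.386).

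The isoforms of heart and skeletal muscle, Cox6a2 and Cox7a1, were above the median level on every array and scattered. Cox7a1 read 10.64, 12.56 and 11.35 in Scr, 10.68, 9.77 and 11.79 in shZeb1_C, and 9.27, 11.51 and 10.52 in shZeb1_D. The groups overlapped, and the differences of -0.77 ± 0.69 and -1.08 ± 0.69 did not pass limma (adjusted p = 0.925 and 0.528). Cox6a2 spread from 10.24 to 12.81 and differed by 0.55 ± 0.61 and 0.35 ± 0.61. Cox7a2l, which joins complexes III and IV into supercomplexes, differed by 0.08 ± 0.27 and 0.39 ± 0.27.

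**Figure D3:**
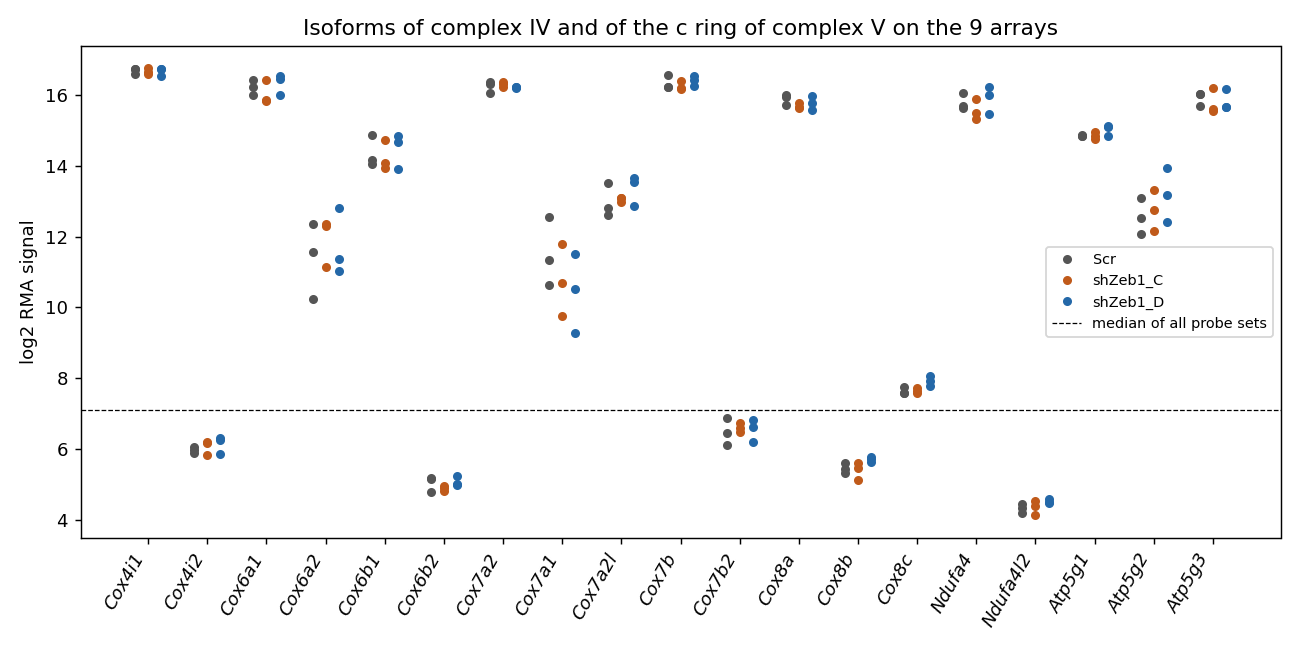
Log2 RMA signal of isoforms of complex IV subunits, of Cox7a2l and of the 3 genes of the complex V ring on the 9 arrays (points, coloured by group); the dashed line is the median of all probe sets, 7.10. Cox4i2, Cox6b2, Cox7b2, Cox8b and Ndufa4l2 lie below the line, and Cox6a2 and Cox7a1 are the most scattered.

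Complex V had a median difference of -0.04 with shZeb1_C and -0.00 with shZeb1_D. Atp5a1 and Atp5b, which form the catalytic head, were measured tightly: Atp5a1 differed by 0.01 ± 0.15 and -0.07 ± 0.15, and Atp5b by -0.11 ± 0.15 and -0.03 ± 0.15. The central stalk, which turns inside the head, was less even. Its subunit Atp5e read 13.19, 14.37 and 13.45 in Scr, 12.24, 12.25 and 13.59 in shZeb1_C, and 11.84, 13.79 and 13.42 in shZeb1_D. Replicate 12 of shZeb1_C and replicates 14 and 15 of shZeb1_D reached into the Scr range, and the differences were -0.98 ± 0.56 (limma adjusted p = 0.752) and -0.65 ± 0.56 (limma adjusted p = 0.645).

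The stalk subunit Atp5c1 read 12.19, 12.75 and 11.95 in Scr, 11.66, 11.37 and 12.02 in shZeb1_C, and 11.75, 12.56 and 12.62 in shZeb1_D. It differed by -0.61 ± 0.30 with shZeb1_C (limma adjusted p = 0.64) and by 0.01 ± 0.30 with shZeb1_D. Atp5d, another stalk subunit, differed by -0.23 ± 0.19 and -0.29 ± 0.19. In the peripheral stalk, which holds the head still, Atp5pb read 13.96, 14.42 and 13.70 in Scr, 13.78, 13.89 and 14.30 in shZeb1_C, and 14.33, 14.74 and 14.81 in shZeb1_D.

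All shZeb1_D arrays of Atp5pb lay above the shZeb1_C arrays, and shZeb1_D 13 lay within the Scr range. The differences of shZeb1_D were 0.60 ± 0.23 from Scr (limma adjusted p = 0.308) and 0.64 ± 0.23 from shZeb1_C (limma adjusted p = 0.32), and shZeb1_C differed from Scr by -0.04 ± 0.23. The other peripheral stalk subunit named here, Atp5o, differed by -0.01 ± 0.43 and 0.09 ± 0.43.

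Atp5g1, Atp5g2 and Atp5g3 encode the same mature protein of the rotating ring. Atp5g2 differed by 0.17 ± 0.43 and 0.61 ± 0.43, with 13.93 on shZeb1_D 15 as its highest reading and 12.09 on Scr 9 as its lowest. Atp5g1 differed by 0.01 and 0.17, and Atp5g3 by -0.13 and -0.08. Atp5k, which supports the pairing of ATP synthases, spread from 12.50 to 14.58 and differed by -0.61 ± 0.61 and -0.23 ± 0.61.

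**Figure D4:**
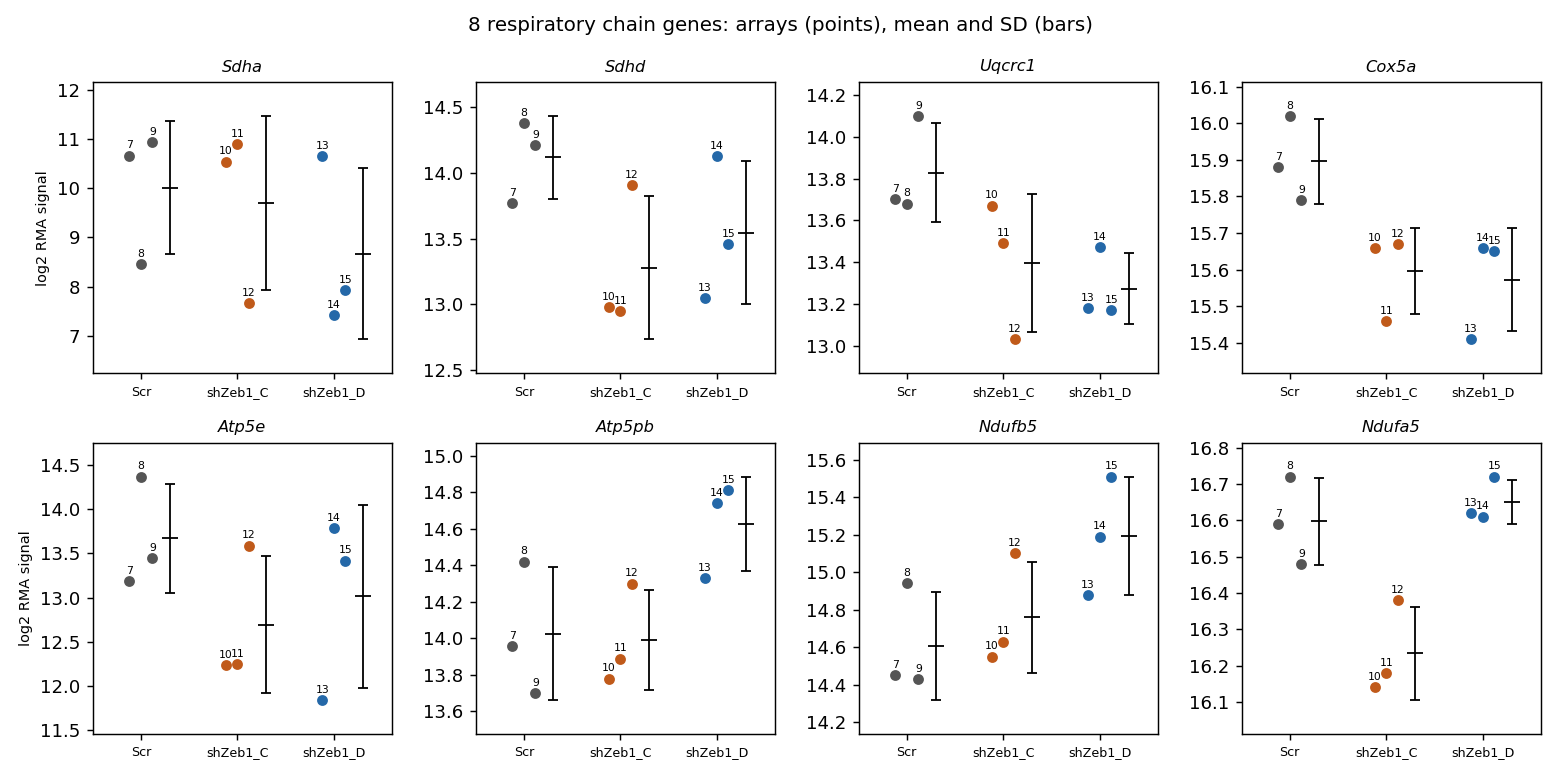
Log2 RMA signal of 8 members on each array (points with array numbers, coloured by group) with the group mean and SD (bars, n = 3); each panel has its own vertical scale, which does not start at 0. Uqcrc1 and Cox5a separate both hairpins from Scr, Ndufa5 separates shZeb1_C from both other groups, and Sdha splits every group.

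Groups that did not overlap at all were counted for every member. Between shZeb1_C and Scr, 2 members were higher on every array (2.13% of members, against 7.5% of all probe sets) and 5 lower (5.32%, against 6.74%). Between shZeb1_D and Scr, 5 were higher (5.32%, against 10.3%) and 5 lower (5.32%, against 6.65%). Between the hairpins, 5 were higher in shZeb1_D (5.32%, against 8.99%) and 4 lower (4.26%, against 6.26%). These counts are small and the comparisons share arrays. Whether the members' shares differ from those of all probe sets was not tested.

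Some members lay in stretches of the chromosome whose other genes differed the same way. For each of the 89 members above the median level, the median difference of its nearest genes above that level was taken, up to 25 on each side and 26 to 50 in all. In shZeb1_C against Scr, this median passed 0.3 in size for 8 members. It was negative for all 8, and all 8 shared its sign. Of the 89 members, 67 (75.3%) were lower in that comparison, whatever their neighbours. For Atp5e on chromosome 2 the neighbours' median was -0.81, beside -0.98 for the gene itself. For Sdhd, Cox5a and Atp5l on chromosome 9, whose windows can share genes, it was -0.36, -0.48 and -0.38, beside -0.84, -0.30 and -0.35. Ndufb4b on chromosome 19 had the second most negative neighbours, at -0.70, but differed by -0.10 itself. The other 3 members, Ndufs7, Uqcr11 and Atp5d on chromosome 10, whose windows can also share genes, differed by -0.24, -0.31 and -0.23. Their neighbours' medians were -0.34, -0.35 and -0.34.

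With shZeb1_D the neighbours' median passed 0.3 in size for 12 members, and 9 of them shared its sign in differences rounded to 2 decimals. Of the 89 members, 39 were lower and 48 higher in that comparison. The neighbours' median was -0.69 for Atp5e, -0.39 for Sdhd and -0.50 for Cox5a, close to the values with shZeb1_C, with which it shares the Scr arrays. On chromosome 3 it was 0.34 for Atp5pb, 0.33 for Ndufb5 and 0.49 for Ndufc1, whose own differences were 0.60, 0.59 and 0.19. Of the other 3 members, Ndufs7 had the opposite sign, at 0.12 beside neighbours at -0.34. Uqcr10 and Atp5md rounded to 0.00 and -0.00, beside neighbours at -0.36 and -0.37. Before rounding, Atp5md lay slightly below Scr, at 99.8% of its level, on the side of its neighbours. Sdha and Cox7a1, the members with the most negative differences, had neighbours at 0.01 and -0.09. Between the hairpins, 4 members had neighbours past 0.3 and 2 shared the sign.

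Across the 89 members, Pearson's r between a member's difference and that of its neighbours was 0.49 with shZeb1_C, 0.38 with shZeb1_D and 0.21 between the hairpins. These are descriptions across genes, which share arrays and in part neighbours, and carry no test. The number of gene copies in these cells was not measured here.

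**Figure D5:**
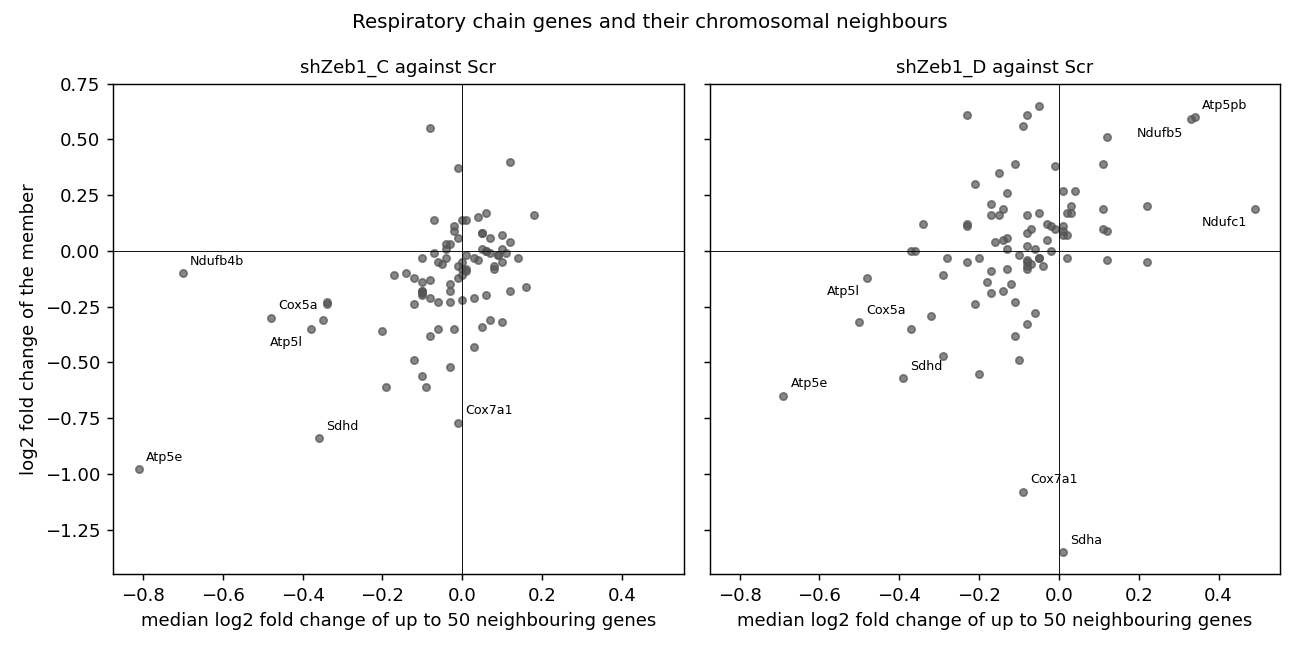
Log2 fold change of each of 89 members (vertical axis) against the median log2 fold change of up to 50 neighbouring genes on its chromosome (horizontal axis), for each hairpin against Scr. Atp5e lies at the lower left in both panels, Atp5pb and Ndufb5 at the upper right with shZeb1_D, and Sdha and Cox7a1 lie low with neighbours near 0.

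Genes of related mitochondrial functions were also counted. Further lists, chosen with earlier results of these data known, held 10 genes of electron carriers and ATP and ADP transport, 10 of coenzyme Q synthesis, 38 other assembly factors, 20 of the citric acid cycle and pyruvate dehydrogenase, 14 regulators of mitochondrial gene expression, 76 mitochondrial ribosomal proteins and 22 of protein import. Of these 190 genes limma called 0 for shZeb1_C against Scr, 1 for shZeb1_D against Scr (0.526%, against 0.843% of all probe sets) and 0 between the hairpins. At an unadjusted p under 0.05, limma gave 12 (6.32%, against 8.77% of all), 18 (9.47%, against 13.6%) and 21 (11.1%, against 11.7%).

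The 1 called gene was Mrpl4, a protein of the mitochondrial ribosome, which fell by 1.05 ± 0.19 (SE; limma adjusted p = 0.0475). It read 10.36, 10.85 and 10.98 in Scr, 10.02, 9.94 and 10.20 in shZeb1_C, and 9.49, 9.88 and 9.66 in shZeb1_D, with no overlap between Scr and shZeb1_D. It lies on chromosome 9, where its neighbours had a median of -0.69 in the same comparison.

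Coenzyme Q synthesis had the widest shifts among these lists, with medians of -0.25 with shZeb1_C, 0.15 with shZeb1_D and 0.44 between the hairpins. At an unadjusted p under 0.05, limma gave 3 of its 10 genes as lower with shZeb1_C, 2 as higher with shZeb1_D and 5 as higher in shZeb1_D than in shZeb1_C, where the lowest adjusted p was 0.0727. The shares of all probe sets at that unadjusted p were 8.77%, 13.6% and 11.7%. The mitochondrial ribosomal proteins had medians of -0.09, 0.12 and 0.22, beside -0.08, 0.05 and 0.14 for the respiratory chain members. The citric acid cycle list had -0.05, -0.01 and 0.08.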

How the data were processed

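Per the submitters' processing notes, the authors used RMA and the Transcriptome Analysis Console; versions and the genome build are not given in the sources used here. The values the authors deposited are linear RMA signals without their decimal point. Each of the 199854 values was returned to log2 by choosing the place that makes log2 a multiple of 0.01, within a tolerance of 1e-06 steps, and every value had a single accepted place. Of 22206 probe sets, 2634 are unnamed here. Gene identifiers were matched to RefSeq (GRCm38.p6) for current symbols, and no symbol changed. limma 3.58.1 in R 4.3.3 fitted a mean per group on all 9 arrays, with empirical Bayes moderation and Benjamini-Hochberg adjustment over 19572 probe sets; calls needed an adjusted p under 0.05. The limma fit was tried on simulated data with independent noise for each probe set. Such data lack the spread that genes share between these arrays. RMA makes the arrays' overall distributions alike, so a shift of most genes in a group would be lost.

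The members and lists were chosen with earlier results of these data known. Named members are, per comparison, the 5 highest and 5 lowest differences above the median level, core subunits, isoforms and their partners, called genes of other lists, and the 5 genes most like the members' mean. Ndufaf1, Ndufa5, Atp5d, Atp5l, Atp5md, Ndufc1, Uqcr10, Uqcr11, Ndufb4b and Ndufb4 were named after their values or sequences were seen. Motifs were sought as exact letters. The number of arrays limits the precision.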

Additional observations from a re-analysis of the deposited data

Results flagged for a closer look

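The 3 shZeb1_C arrays of Ndufa5 lay below the Scr mean of 16.60 and its 3 shZeb1_D arrays above it. The shZeb1_D arrays, at 16.62, 16.61 and 16.72, stayed within the Scr range, with a difference from Scr of 0.05 ± 0.14 (SE). With shZeb1_C the difference from Scr was -0.36 ± 0.14. The log2 difference of shZeb1_D minus shZeb1_C was 0.42, which did not pass limma (adjusted p = 0.276). Ndufa5 was the only one of the 94 members whose hairpin arrays all lay on opposite sides of the Scr mean (1.06%), against 3.36% of all probe sets.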

How the results depend on the processing

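The count of members called was 0 in each comparison under every alternative except array weights and the array component as a covariate. The model without moderation of the variance called only 23, 0 and 11 of all probe sets. Array weights gave 1 member for shZeb1_C against Scr (Sdhd), 2 for shZeb1_D against Scr (Atp5pb and Ndufb5) and 1 between the hairpins (Atp5pb), against 2.92%, 5.5% and 4.26% of all probe sets. The component gave 2, 6 and 5. Leaving out 1 array at a time kept the counts at 0. Calls among all 19572 probe sets then ranged from 43 to 214 with shZeb1_C, 14 to 213 with shZeb1_D and 49 to 162 between the hairpins. With so few calls, a count of 0 members says little. The members' median difference moved between -0.19 and 0.03 with shZeb1_C, -0.05 and 0.18 with shZeb1_D, and 0.03 and 0.26 between the hairpins. The shZeb1_C median was positive only without Scr 8. The shZeb1_D median was negative without Scr 7, Scr 9, shZeb1_D 14 or shZeb1_D 15, and with array medians subtracted (-0.03, with 53 of 94 members lower in place of 39). Subtracting array medians took the shZeb1_C count of lower members from 69 to 79, quantile normalization to 61, and leaving out Scr 8 to 40. All shifts of the medians named here were below 0.21, the SD of the members' median between arrays of a group. Of 2949 values of named members under alternatives, 17 came to pass the threshold, and 2929 of the others moved by less than the within-group SD. The remaining 3 moved by more. The sign changed for 164 values, 130 of them on leaving out an array and 0 of them past the threshold. No paired analysis was possible because the groups share no replicate numbers. With 3 arrays a group, members of middle level, whose SD was 0.48 to 0.63, were measured least precisely.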
